A study of Homo sapiens with 15 samples.

Results

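Transcripts of 7 BCL2 family genes were measured in HCT116 cells, a human colorectal cancer line, after treatment with thymoquinone (TQ), 5-fluorouracil (5-FU), both drugs together or a hybrid molecule of the pair. The 7 genes were taken by symbol, with no threshold on their values, from the 770 genes of a NanoString PanCancer Pathways panel, of which 730 are endogenous test genes and 40 are housekeeping genes. The 4 treated groups received their drugs for 24 h. These were TQ at 40 µM, 5-FU at 15 µM, Combi as a mixture with 35 µM of each drug, and SARB at 35 µM, and untreated cells of the same line were the control. SARB is the product of an esterification that links TQ and 5-FU in 1 molecule. Each of the 5 groups had 3 samples, each assayed from 50 ng of total RNA. Nothing in the labels states whether the 3 samples of a group came from separate cultures, so the p-values measure the spread between these samples, which may be technical. All findings refer to this 1 cell line at 1 time point.

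Proteins of the BCL2 family decide whether the outer mitochondrial membrane is breached during apoptosis. BAX is an effector that forms the pores, BID and BAD are BH3-only proteins that activate the effectors or occupy their inhibitors, and BNIP3 is an atypical relative that also serves as a mitophagy receptor and is known as a target of hypoxia signaling. BCL2, the longer product of BCL2L1 (Bcl-xL) and BCL2A1 (BFL-1) hold the effectors in check. The panel thus holds 4 pro-death members (BAX, BAD, BID, BNIP3) and 3 pro-survival members (BCL2, BCL2L1, BCL2A1). None of 13 further relatives that were looked for, MCL1, BAK1, BBC3 (PUMA) and PMAIP1 (NOXA) among them, is on the panel.

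All 7 members matched RefSeq genes of GRCh38.p14 through the transcript each probe was designed to. BAX lies at chr19:48954875-48961798, BAD at chr11:64269828-64284704, BID at chr22:17734138-17774665 and BNIP3 at chr10:131967684-131981923. BCL2 lies at chr18:63123346-63320090, BCL2L1 at chr20:31664452-31723963 and BCL2A1 at chr15:79960892-79971196. The 250 bases before the start site are shown for BAX and BCL2L1, the 2 members that were called higher in 5-FU, from the RefSeq promoter table, 5′ to 3′ on the strand of the gene. The BAX window is chr19:48954625-48954874 on the plus strand, and the BCL2L1 window, the farthest upstream of its 2 start sites, is chr20:31723964-31724213 on the minus strand. Capitals mark the palindromic E-box CACGTG, which reads the same on both strands.
BAX: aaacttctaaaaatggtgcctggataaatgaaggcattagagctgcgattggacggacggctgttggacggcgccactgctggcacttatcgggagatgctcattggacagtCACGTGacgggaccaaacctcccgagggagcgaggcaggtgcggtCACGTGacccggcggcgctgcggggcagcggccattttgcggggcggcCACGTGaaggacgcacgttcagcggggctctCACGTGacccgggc
BCL2L1: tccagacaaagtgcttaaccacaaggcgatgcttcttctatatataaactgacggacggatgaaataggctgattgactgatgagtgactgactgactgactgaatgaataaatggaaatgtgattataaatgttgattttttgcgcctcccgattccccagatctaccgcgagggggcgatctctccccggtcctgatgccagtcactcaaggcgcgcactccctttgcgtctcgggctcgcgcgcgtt
The BAX window held 4 E-boxes, beginning 138, 93, 45 and 14 bases before the start site, and the BCL2L1 window held 0. The E-box was present in 6.35% of 35116 RefSeq promoter windows of 250 bases, and 28 of them (0.0797%) held 3 or more. Over all 13 start sites of the 7 members, BNIP3 had 1 E-box and BID had 1 that lay in 2 overlapping windows. These are letter matches in a short window and no measure of binding.

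In the assay each transcript is counted through a barcoded probe pair without amplification. Which products of BCL2L1, the long or the short, its probe captures was not checked here. Endogenous totals ranged from 135017 to 607782 counts per sample. Every sample was multiplied by 1 factor that equalized the geometric mean of its housekeeping genes, which gives the scaled counts. Values under a scaling by the positive control probes are also given below. Those probes did not follow the totals: TQ replicates 1 and 2 had positive-probe geometric means of 350 and 342 beside totals of 135017 and 513114. Samples of 1 group thus spread widely under that scaling, which limits its signs and calls. A gene was called higher or lower where it passed both an adjusted p of 0.05 and a 1.5-fold limit, the p being that of the quasi-likelihood test in edgeR after Benjamini-Hochberg adjustment over 730 genes. All adjusted p-values below come from this test unless another tool is named. The samples ran on 3 cartridges, the first with control replicate 1 and all TQ, 5-FU and SARB samples, the second with control replicates 2 and 3 and Combi replicate 1, and the third with Combi replicates 2 and 3. SARB and Combi never shared a cartridge. The housekeeping genes set the zero of every fold change, and relative to them the bulk of the panel sat below control, with medians over all genes of -0.47 (TQ), -0.27 (5-FU), -0.10 (Combi) and -0.41 (SARB) on the log2 scale. Of the epithelial markers on the panel, all 5 (CDH1, MET, PROM1, LAMB3, ITGA6) were above the negative probes in all 15 samples. Of 7 leukocyte genes CD40 alone was above them in 15 samples, 4 of 5 fibroblast genes were above them in 0 samples with COL1A1 above in 13, and the endothelial gene FLT1 was above in 2. The marker lists were 12, 9, 6 and 6 genes long before matching to the panel. Every treatment was compared with the same 3 control samples, so the 4 comparisons share them.

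BAX, the pore-forming effector, was the member with the widest range of levels, and it was higher in every treatment that contained 5-FU or the hybrid. Its scaled counts were 509, 642 and 590.1 in control replicates 1, 2 and 3. In 5-FU they were 1144, 1191 and 1424, in SARB 1343, 1730.5 and 1566, and in Combi 1656, 2038 and 2091. All samples of these 3 groups lay above all controls. The TQ samples, at 424, 405 and 449, lay below all controls. From 580 ± 67.3 (SD, n = 3) in control the mean rose to 1253 ± 150 with 5-FU, with a log2 fold change of 1.11 (SE 0.13, adjusted p = 1.28e-06). In Combi the mean was 1929 ± 238 (log2 fold change 1.73, SE 0.13, adjusted p = 1.12e-09). In SARB it was 1547 ± 195 (log2 fold change 1.41, SE 0.13, adjusted p = 3.64e-08). These are 2.16-fold, 3.32-fold and 2.66-fold rises, and each was also called after TMM normalization, with log2 fold changes of 1.30, 1.83 and 1.76. In TQ the mean of 426 ± 21.9 corresponded to a log2 fold change of -0.45 (95% interval -0.73 to -0.17, adjusted p = 0.0163), which is under the 1.5-fold limit, and the value was 0.010 after TMM normalization and 1.14 with positive-probe scaling. Against TQ, BAX in 5-FU was 2.95-fold higher (log2 1.56, adjusted p = 1.01e-08, 14.4% of all genes called higher), at doses that differ between the drugs, and with positive-probe scaling it was 0.25 with no call. In order of level the groups ran TQ, control, 5-FU, SARB and Combi. SARB against 5-FU (log2 0.30, 95% interval 0.04 to 0.57, adjusted p = 0.306) was not called. Nor was SARB against Combi (-0.32, interval -0.58 to -0.06, adjusted p = 0.0791). Both intervals left out 0, but neither difference passed the adjustment over all genes. On the first cartridge, where control replicate 1 stood at 509, the log2 difference from it was -0.26 in TQ, 1.30 in 5-FU and 1.60 in SARB, with no test, and on the second Combi replicate 1 was 1.43 above the mean of control replicates 2 and 3.

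**Figure D1:**
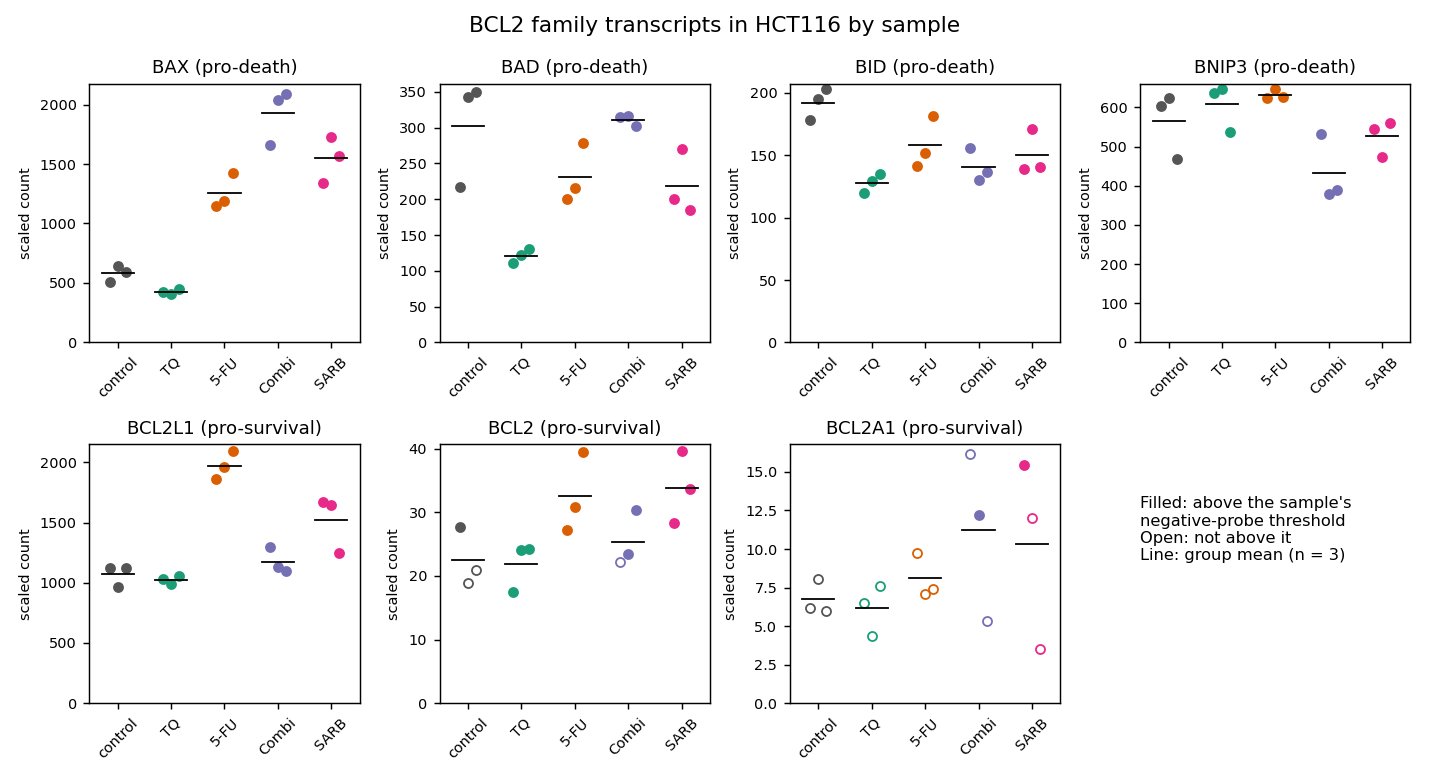
Scaled counts (vertical axes, linear and starting at 0) of the 7 members in each of the 15 samples, by group on the horizontal axes, with black lines at the group means. Filled points are above the negative-probe threshold of their sample, and BCL2A1 is mostly open, while BAX in 5-FU, Combi and SARB stands above every control sample.

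BAD, a BH3-only protein that survival kinases keep inactive by phosphorylation, was the 1 member called lower, and only in TQ. Its scaled counts were 111, 122 and 130.4 in TQ against 217, 343 and 349.6 in control. They were 199.7, 215 and 278 in 5-FU, 315, 317 and 302 in Combi and 201, 269.6 and 185 in SARB. The TQ samples lay below every other sample of the series, while those of 5-FU, Combi and SARB overlapped with the controls. The mean fell from 303 ± 74.8 to 121 ± 9.73 (SD, n = 3) in TQ, a log2 fold change of -1.32 (SE 0.19, adjusted p = 3.29e-05). After TMM normalization it was -0.83 and the call held, whereas scaling by the positive control probes gave 0.30 with no call. Control replicate 1 was lower than the other controls, and it is the only control on the cartridge of the TQ samples. Against that sample alone the log2 difference of BAD in TQ was -0.84, the block for cartridge gave -0.83 with the call kept, and the fit of the first cartridge alone gave the same -0.83 without the call (adjusted p = 0.0594). The other treatments gave -0.40 in 5-FU (95% interval -0.76 to -0.03, adjusted p = 0.10), 0.04 in Combi (-0.32 to 0.39) and -0.49 in SARB (-0.85 to -0.13, adjusted p = 0.0316), none past the 1.5-fold limit. Without control replicate 1, 5-FU (-0.59, adjusted p = 0.00965) and SARB (-0.68, adjusted p = 0.00258) were called lower, and SARB was also called without SARB replicate 2 (-0.66). After TMM normalization the values shrank to -0.20 in 5-FU and -0.14 in SARB, neither called. The medians over all genes under the housekeeping scaling were -0.27 in 5-FU and -0.41 in SARB. With the block for cartridge the 5-FU value turned to 0.09 and the Combi value to -0.14. BAD in 5-FU was called higher than in TQ (log2 0.92, adjusted p = 0.000883), at unequal doses, and with positive-probe scaling that value turned to -0.44. The levels ran TQ, SARB, 5-FU, control and Combi. Among these neighbours only SARB against TQ was called (log2 0.83, adjusted p = 0.002), at unequal doses, where 101 of 730 genes were called higher. That comparison was not fitted under the other scalings. With positive-probe scaling the BAD values against control were 0.30 in TQ and 0.20 in SARB.

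BID, the BH3-only protein that caspase-8 cleaves to connect death receptors with mitochondria, was lower in every treated group by its mean without being called in any. Scaled counts were 178, 195 and 203 in control, 119.7, 129 and 135 in TQ and 156, 129.7 and 136 in Combi. They were 139, 171 and 141 in SARB and 141, 151 and 182 in 5-FU. The samples of TQ, Combi and SARB lay below all controls, and those of 5-FU overlapped with them. From 192 ± 12.6 in control, the log2 fold change was -0.58 in TQ (95% interval -0.89 to -0.27, adjusted p = 0.00624), a 1.50-fold difference that fell just short of the limit. It passed the limit without control replicate 1 (-0.63), TQ replicate 2 (-0.59) or TQ replicate 3 (-0.61), and with limma on the authors' normalized values (-0.64). It was -0.46 in Combi (-0.75 to -0.17, adjusted p = 0.0158), -0.36 in SARB (-0.66 to -0.07, adjusted p = 0.0467) and -0.28 in 5-FU (-0.58 to 0.02, adjusted p = 0.147). In TQ, 5-FU and SARB these values are close to the shift of all genes under the housekeeping scaling, and in Combi, where that shift was -0.10, the BID value is farther below 0. After TMM normalization they were -0.11 in TQ, -0.37 in Combi, -0.01 in SARB and -0.09 in 5-FU, while positive-probe scaling turned them to 1.06, 0.56, 0.42 and 0.0066. No pair of neighbours in the order TQ, Combi, SARB, 5-FU and control differed beyond its spread (adjusted p between 0.147 and 0.880).

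BNIP3 was not called in any treatment against control. Scaled counts were 604, 623 and 468 in control, 638, 647 and 538 in TQ and 625, 647 and 626 in 5-FU. They were 531, 378 and 389 in Combi and 545, 475 and 561 in SARB. The 2 lowest samples of the series were Combi replicates 2 and 3, the 2 samples of the third cartridge, and Combi replicate 1 on the second cartridge lay among the controls. The log2 fold change in Combi was -0.39 (95% interval -0.69 to -0.10, adjusted p = 0.0404), and on the second cartridge alone Combi replicate 1 differed from the controls by -0.04. With cartridge as a block the Combi value was also -0.04 and not called, but only Combi replicate 1 shared a cartridge with controls. Cartridge and treatment cannot be told apart for Combi replicates 2 and 3. The values in TQ (0.11, interval -0.19 to 0.40), 5-FU (0.16, -0.13 to 0.46) and SARB (-0.10, -0.39 to 0.19) had intervals that included 0, and the SARB value turned to 0.25 after TMM normalization. Positive-probe scaling turned the Combi value to 0.61 and the SARB value to 0.79. With the size factors of DESeq2 BNIP3 was called higher in TQ (0.59, adjusted p = 0.0299 in DESeq2) and in SARB against Combi (0.65, adjusted p = 0.0185 in DESeq2). No step between neighbours in the order Combi, SARB, control, TQ and 5-FU was called. The 95% interval of SARB against Combi was 0.005 to 0.58, with an adjusted p of 0.147.

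BCL2L1, which encodes the survival protein Bcl-xL, was called higher in 5-FU. Scaled counts were 1127, 966 and 1123 in control and 1859, 1958 and 2094 in 5-FU. They were 1673, 1647 and 1252 in SARB, 1299, 1131 and 1099.8 in Combi and 1029, 994 and 1059.5 in TQ. The samples of 5-FU lay above all others, those of SARB lay above all controls, and those of Combi and TQ overlapped with the controls. The mean rose from 1072 ± 91.8 in control to 1970.45 ± 118 in 5-FU (log2 fold change 0.88, SE 0.12, adjusted p = 8.11e-06), a 1.84-fold rise. In SARB the mean was 1524 ± 236 and the log2 fold change 0.51 (95% interval 0.26 to 0.75, adjusted p = 0.0023), under the 1.5-fold limit. After TMM normalization the SARB value was 0.84 and was called (adjusted p = 2.71e-05), as it was at 0.63 without SARB replicate 3, so whether it is called depends on the scaling and on that sample. Combi stood at 1176 ± 107 (log2 0.13, interval -0.12 to 0.38, adjusted p = 0.479), although it held more 5-FU than the 5-FU group. Compared directly, BCL2L1 was lower in Combi than in 5-FU by 0.75 on the log2 scale (value -0.75, SE 0.12, adjusted p = 0.00014, and -0.038 with no call under positive-probe scaling), with 4.11% of all genes called lower in that comparison. BAX moved the other way in the same comparison (log2 0.62, adjusted p = 0.00153), where 7.67% of genes were called higher. That BAX call was lost in 7 of 19 alternatives. These were TMM normalization (0.53), the size factors of DESeq2 (0.46), positive-probe scaling (1.39) and the cartridge block given next. The others left out 5-FU replicate 1 (0.56), Combi replicate 2 (0.58) or Combi replicate 3 (0.56). The 2 groups ran on different cartridges, and when cartridge entered as a block, so that only Combi replicate 1 and the controls connect them, the values were -0.49 and 0.13 and neither was called. TQ differed from control by -0.06 (interval -0.31 to 0.19), a value that turned to 0.39 after TMM normalization and 1.57 with positive-probe scaling, and BCL2L1 was higher in 5-FU than in TQ (log2 0.94, adjusted p = 3.63e-06), where positive-probe scaling turned the value to -0.36. The order was TQ, control, Combi, SARB and 5-FU, and no step of it passed both limits, the step from Combi to SARB having an adjusted p of 0.0339 and that from SARB to 5-FU 0.153.

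BCL2 itself, the founding survival gene of the family, was close to the background of the assay in this line. Raw counts were 8 to 77, and 1 of 3 control, 3 of 3 TQ, 3 of 3 5-FU, 2 of 3 Combi and 3 of 3 SARB samples exceeded the mean of the negative probes by more than 2 SD. This threshold differed by sample, from 6.23 to 26.4 counts, so these shares do not compare the groups. TQ replicate 1 passed it with 8 counts, while control replicates 2 and 3 did not with 14 each. The samples not above it, these 2 controls and Combi replicate 1, all ran on the second cartridge. Scaled counts were 27.7, 18.8 and 20.9 in control, 17.4, 24.1 and 24.3 in TQ and 27.1, 30.7 and 39.5 in 5-FU. They were 22.2, 23.4 and 30.3 in Combi and 28.3, 39.5 and 33.7 in SARB. The SARB samples lay above all controls and the other groups overlapped with them. The log2 fold changes were 0.00 in TQ (95% interval -0.61 to 0.61), 0.53 in 5-FU (-0.16 to 1.22), 0.18 in Combi (-0.49 to 0.86) and 0.59 in SARB (-0.09 to 1.26), with adjusted p-values from 0.157 to 0.998. The SARB value was called at 0.94 after TMM normalization (adjusted p = 0.0214). It was also called at 1.66 with limma on the normalized values of the authors, from which the negative probes had been subtracted, as was the 5-FU value at 1.52. The few counts behind BCL2 make these intervals wide. BCL2A1, a survival gene known mainly from blood cells, had raw counts of 3 to 26 and exceeded that threshold in Combi replicate 2 and SARB replicate 1 alone. Its group means of scaled counts were 6.73 (control), 6.16 (TQ), 8.09 (5-FU), 11.2 (Combi) and 10.3 (SARB), and with levels at the negative probes no fold change is given.

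Counted over the family, TQ had 0 of 7 members called higher and 1 called lower (BAD), while 3.42% of all genes tested were called higher and 21.6% lower. In 5-FU, 2 members were called higher (BAX, BCL2L1) and 0 lower, against 10.1% higher and 10.1% lower of all genes. Combi had 1 higher (BAX) and 0 lower, against 13.6% and 6.58%. SARB had 1 higher (BAX) and 0 lower, against 8.63% and 20%. For 7 members, 1 call is a share of the order of the background. The split of all genes depends on the scaling, with 25 higher and 158 lower in TQ, 74 and 74 in 5-FU, 99 and 48 in Combi and 63 and 146 in SARB here, and 79 and 44, 104 and 41, 119 and 42, and 120 and 68 after TMM normalization. TMM left the members called in TQ, 5-FU and Combi at the same numbers and raised those called higher in SARB to 3. The median log2 fold change of the 4 pro-death members was -0.52 (TQ), -0.06 (5-FU), -0.18 (Combi) and -0.23 (SARB). Over all genes it was -0.47, -0.27, -0.10 and -0.41 in the same order. No median is given for the pro-survival members, because BCL2 and BCL2A1 are near background and BCL2L1 is the only well-measured one. BAX had a higher fold change than BCL2L1 in 5-FU (1.11 and 0.88), Combi (1.73 and 0.13) and SARB (1.41 and 0.51), and a lower one in TQ (-0.45 and -0.06).

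**Figure D2:**
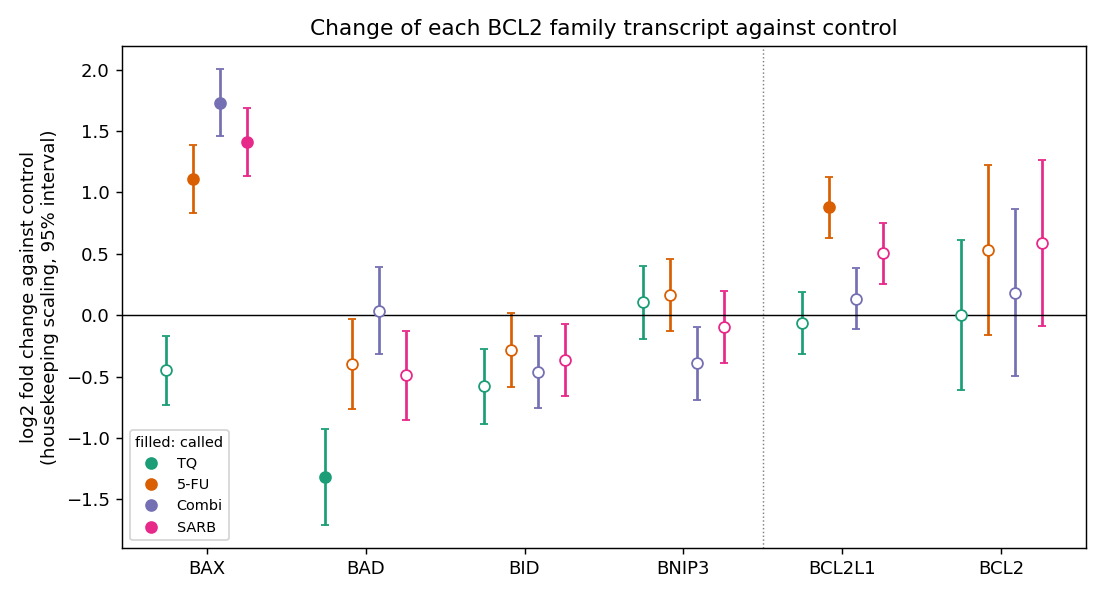
Log2 fold change against control (vertical axis, relative to the housekeeping genes) of 6 members in the 4 treatments, with 95% intervals of the edgeR fit and filled points where the change was called. BAX in 5-FU, Combi and SARB, BCL2L1 in 5-FU and BAD in TQ are the filled points, and BCL2 has the widest intervals; the BAX point of TQ at -0.45 moves to 0.010 after TMM normalization.

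SARB and Combi could be compared at a matched 35 µM of each drug moiety, which asks whether linking the drugs changes the response. None of the 7 members was called in either direction, where 0.959% of all genes were called higher and 11.2% lower in SARB. BAX was lower in SARB by the point estimate (log2 difference -0.32, 95% interval -0.58 to -0.06, adjusted p = 0.0791), with SARB replicate 2 above Combi replicate 1. BAD was lower in all 3 SARB samples than in all Combi samples (-0.53, -0.88 to -0.17, adjusted p = 0.0349) and was called without SARB replicate 2 (-0.69), and BCL2L1 was higher by 0.37 (0.13 to 0.62, adjusted p = 0.0339) with overlapping samples. BNIP3 differed by 0.29 (0.01 to 0.58, adjusted p = 0.147), BID by 0.10 (-0.19 to 0.38, adjusted p = 0.644) and BCL2 by 0.40 (-0.22 to 1.03, adjusted p = 0.368). With cartridge as a block the BAX value turned to 0.18, the BAD value to 0.13 and the BNIP3 value to -0.15. After TMM normalization BCL2L1 was called higher in SARB (0.62, adjusted p = 0.00231), BAX differed by -0.07 and BAD by -0.28 (adjusted p = 0.246). The median over all genes in this comparison was -0.32 under the housekeeping scaling. No cartridge held both groups, so cartridge and treatment cannot be told apart here except through the controls and Combi replicate 1.

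The ratio of BAX to BCL2L1 counts within a sample does not depend on the scaling, and since probes differ in efficiency only its change between samples is read. It was 0.452, 0.665 and 0.525 in the controls, 0.412, 0.408 and 0.423 in TQ and 0.615, 0.608 and 0.680 in 5-FU. It was 0.803, 1.05 and 1.25 in SARB and 1.28, 1.80 and 1.90 in Combi. The SARB and Combi samples lay above all samples of the other groups, the TQ samples below all controls, and the 5-FU samples overlapped with the controls. The means were 0.547 ± 0.108 (SD, n = 3) in control, 0.414 ± 0.00815 in TQ, 0.635 ± 0.0397 in 5-FU, 1.03 ± 0.225 in SARB and 1.66 ± 0.337 in Combi. On the log2 scale the difference from control was -0.38 in TQ, 0.23 in 5-FU, 0.91 in SARB and 1.60 in Combi, the last being a 3.03-fold and the SARB value a 1.88-fold rise. In 5-FU both genes rose, and the log2 difference of the ratio lay between 0.10 and 0.38 with 1 sample left out and was 0.49 against control replicate 1 on the first cartridge, beside an SD of 0.28 among controls. The lowest Combi ratio was that of replicate 1, the sample that shared a cartridge with controls, at 1.28 against 0.665 and 0.525. The ratio of BAX to BCL2 had means of 26.9 in control, 19.9 in TQ, 39.0 in 5-FU, 45.9 in SARB and 76.8 in Combi. Because BCL2 is near background, subtracting the negative probes turned its difference from control in 5-FU from 0.58 to -0.56 and in SARB from 0.82 to -0.44, so no direction is read from it there.

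**Figure D3:**
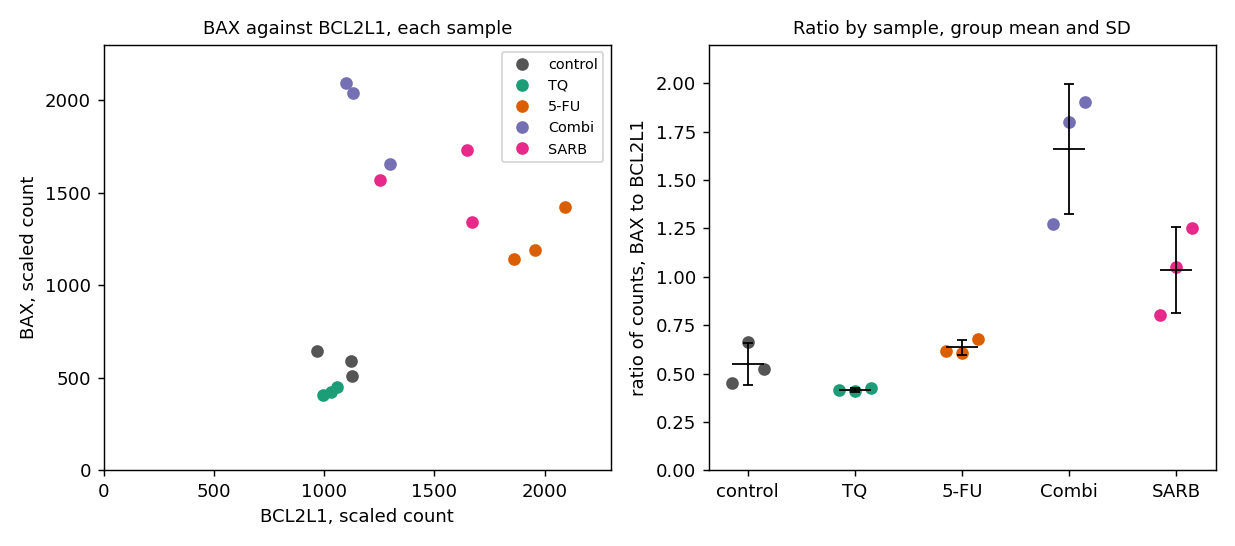
Left, scaled counts of BAX against BCL2L1 in each of the 15 samples (linear axes from 0). Right, the ratio of BAX to BCL2L1 counts by sample, with a black line at the group mean and bars of 1 SD (n = 3). Combi combines high BAX with control-like BCL2L1 and reaches ratios of 1.28 to 1.90, while 5-FU is high in both and its ratios of 0.608 to 0.680 overlap with those of the controls.

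Genes that act before or after the family were taken from lists. MDM2, a ubiquitin ligase, was called higher in 5-FU (log2 fold change 2.05), Combi (2.29) and SARB (2.14), the 3 treatments in which BAX was called, with mean scaled counts of 1657 in control, 6882 in 5-FU, 8123 in Combi and 7319.8 in SARB. The shares of all genes called higher there were 10.1%, 13.6% and 8.63%. The call of MDM2 in 5-FU was lost with positive-probe scaling at 2.39. In TQ MDM2 stood at 1925. CASP12 was called lower in TQ and in SARB, but it exceeded the negative probes in 0 samples. Of 5 inhibitor of apoptosis genes, BIRC3 and BIRC7 are on the panel and neither was called against control. BIRC3 just missed the call in Combi (1.26, adjusted p = 0.0521), where all samples lay above all controls. It was called lower in SARB than in Combi (-1.29, adjusted p = 0.0478), beside 11.2% of all genes. Its counts were low, above the negative probes in 5 of 15 samples.

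The subunits of calcineurin, the phosphatase that activates the BAD protein, are represented by PPP3CA, PPP3CB, PPP3CC and PPP3R1, and where called they were lower, in TQ and SARB beside 21.6% and 20% of all genes called lower. PPP3CB, a catalytic subunit, was called lower in TQ (-0.63), 5-FU (-0.67), Combi (-0.70) and SARB (-1.02). PPP3CA, its other main catalytic subunit, was called lower in TQ (-1.14) and SARB (-0.62), and the regulatory subunit PPP3R1 in SARB (-0.60). The values of PPP3CA and PPP3CB in TQ turned to 0.57 and 0.90 with positive-probe scaling, and after TMM normalization PPP3CB was not called in TQ (-0.16) or 5-FU (-0.48), nor PPP3CA (-0.24) and PPP3R1 (-0.24) in SARB. With cartridge as a block PPP3CB was not called in TQ (-0.66), 5-FU (-0.70) or Combi (-0.55), nor PPP3R1 in SARB (-0.50), while PPP3CB in SARB and PPP3CA in TQ and SARB were.

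Of 10 transcription factors known to regulate members of the family, 8 are on the panel. STAT3, known to drive BCL2L1, was called higher in 5-FU (log2 fold change 1.22) and SARB (0.92), beside 10.1% and 8.63% of all genes. Neither was called with positive-probe scaling (1.58 and 1.70), and a link to BCL2L1 was not tested. In Combi it was 0.46 (adjusted p = 0.0128), under the 1.5-fold limit. RELA, the transactivating subunit of NF-kappaB, was called higher in Combi (1.43), beside 13.6% of all genes. Its value shrank to 0.77 with cartridge as a block, where it was still called. FOXO4 was called lower in TQ (-0.70), beside 21.6% of all genes, but the call held in only 6 of 20 alternatives. It was lost after TMM normalization (-0.20), with the size factors of DESeq2 (-0.17) and with cartridge as a block (-0.29), among others. Positive-probe scaling turned the value to 0.94. Of 9 hypoxia targets other than BNIP3, VEGFA is on the panel. It was called lower in 5-FU (-0.61) and SARB (-0.63), beside 10.1% and 20% of all genes, but not after TMM normalization (-0.42 and -0.30).

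**Figure D4:**
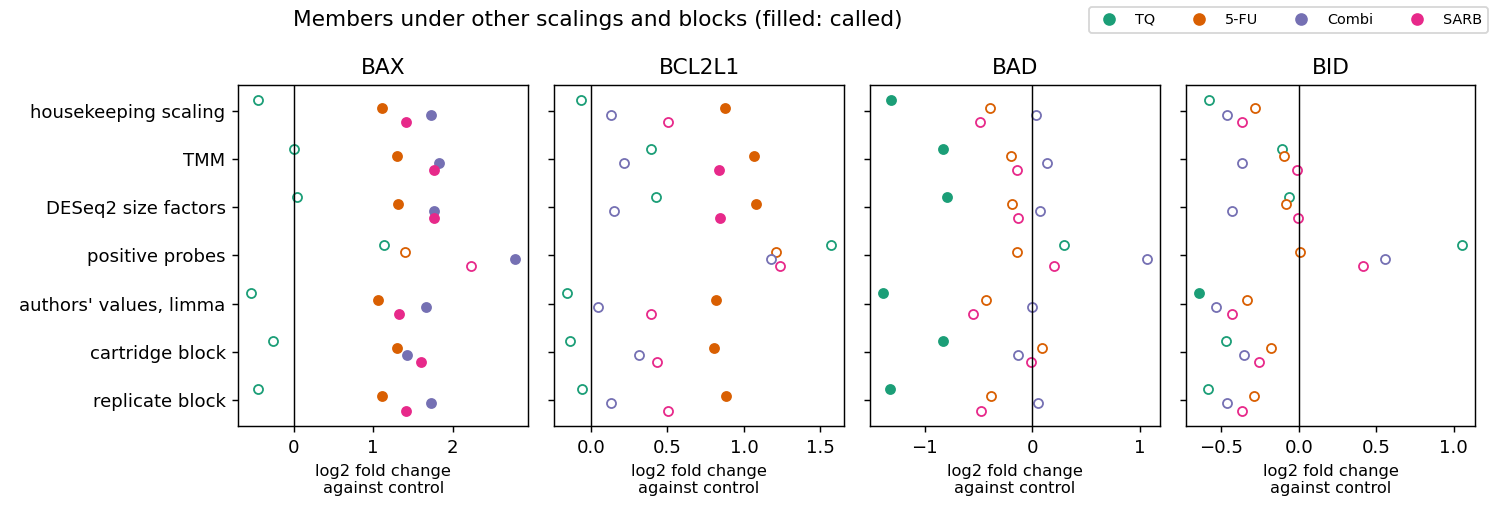
Log2 fold change against control (horizontal axes) of BAX, BCL2L1, BAD and BID in the 4 treatments under 4 scalings, on the normalized values of the authors and with cartridge or replicate number as a block (rows), with filled points where the change was called. BAX in Combi is filled in every row, BAX in 5-FU and SARB in every row but that of the positive probes, and in TQ the BAX, BCL2L1, BAD and BID values of the positive-probe row lie on the other side of 0 from the housekeeping row.

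The genes whose profile over the 15 samples was most like that of a member were found by the root mean square difference of centered log2 scaled counts, among 508 genes with a mean raw count of at least 20. BAX was nearest to JUN (0.30) and FLNC (0.33), against a median difference of 0.87 over all 508 genes. BAD was nearest to SPOP (0.19) and WNT16 (0.24), with a median of 0.55. BCL2L1 was nearest to GNA11 (0.18) and NF2 (0.19), with a median of 0.52. BID was nearest to NBN (0.12) and H3F3A (0.15), BNIP3 to NRAS (0.13) and GRB2 (0.14), and BCL2 to FANCA (0.20). The profiles of these 3 members vary little, with root mean square differences of 0.23, 0.25 and 0.33 from a flat line. Among the members themselves the closest pair was BCL2 and BCL2L1 (0.28), and BAX was 0.69 from BAD, its nearest relative by this measure. All pairs share the same libraries, cartridges and scaling, and these values are descriptions without a test.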

How the data were processed

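RNA of 15 HCT116 samples was assayed on the nCounter PanCancer Pathways panel. The authors deposited raw counts per probe with no normalization, and also a normalized signal made in nSolver 3.0 with the geometric mean of the housekeeping genes. That signal equals, within 1% for 100% of values in every sample, the raw count less the negative-probe geometric mean (at least 1) times 1 sample factor. Another deposited table holds the authors' comparisons (fold changes and p-values) and was not used. Samples were grouped by title, and cartridges were read from the labels.

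Raw counts of 730 endogenous genes entered 1 quasi-likelihood fit over 5 groups in edgeR 4.0.16 (R 4.3.3), with effective library sizes set by the geometric mean of the 40 housekeeping genes and Benjamini-Hochberg adjustment over all genes. Genes were not filtered. A probe was taken as above background when its count exceeded the mean of the 8 negative probes by more than 2 SD. Endogenous totals of 135017 to 607782 and negative means of 3.12 to 16.4 limit genes with few counts. The text names all 7 members, list genes called against control (at most 6 a list) and the 2 genes most like each member, except some that are not reported here. The members and lists were chosen with earlier results of these data known. Ratios use raw counts and have no test. Alternatives were TMM, positive-probe scaling, DESeq2 1.42.0, limma 3.58.1 on log2 of the deposited normalized values plus 1, a low-count filter at a mean of 20, a floor of 20, subtraction of negatives, blocks, fewer samples and other call rules. Further settings, a fit of the first cartridge alone and differences within a cartridge, were added after the data were seen. Another promoter motif was searched beside the E-box and is not reported here. Scripts were tested on simulated data.

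Samples with the same replicate number did not deviate together throughout, with correlations from -0.67 to 0.39. Of 10 pairs each, 5 for number 1, 2 for number 2 and 2 for number 3 exceeded 0.1. Replicate numbers were not taken as pairs, and a block for them was run as an alternative. Pairs of replicates all differed by more than counting noise.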

Additional observations from a re-analysis of the deposited data

How the results depend on the processing

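BAX in Combi was called under every alternative run, and BAX in 5-FU and SARB and BCL2L1 in 5-FU under all but positive-probe scaling. BAD in TQ was called under all but positive-probe scaling and the first cartridge alone. The causes of the changes below were not tested. With TMM the log2 value against control turned to 0.010 for BAX and 0.39 for BCL2L1 in TQ and to 0.25 for BNIP3 in SARB, and members called higher became 3 in SARB and 1 in SARB versus Combi. With the size factors of DESeq2 it turned to 0.046 for BAX and 0.43 for BCL2L1 in TQ, to 0.26 for BNIP3 in SARB and to 0.0023 for BAX in SARB versus Combi, and members called higher became 1 in TQ, 3 in SARB and 2 in SARB versus Combi. DESeq2 with the housekeeping factors changed none of the member counts. The positive probes did not follow the endogenous totals, with geometric means of 350 and 342 in TQ replicates 1 and 2 beside totals of 135017 and 513114. The values under positive-probe scaling carry this limit. Positive-probe scaling moved the median of all genes to 1.12 in TQ and 0.92 in Combi. It turned BAX to 1.14, BAD to 0.30, BID to 1.06 and BCL2L1 to 1.57 in TQ, BID to 0.0066 in 5-FU, BID to 0.56 and BNIP3 to 0.61 in Combi, and BAD to 0.20, BID to 0.42 and BNIP3 to 0.79 in SARB. It also turned BID to -0.14 in SARB versus Combi, BAD to -0.44 and BCL2L1 to -0.36 in 5-FU versus TQ, PPP3CA to 0.57, PPP3CB to 0.90 and FOXO4 to 0.94 in TQ, PPP3CB to 0.35 in Combi, and PPP3CA to 0.37, PPP3R1 to 0.24 and VEGFA to 0.12 in SARB. Under it 0 members were called higher in 5-FU and SARB and 0 lower in TQ. With cartridge as a block BAD turned to 0.089 in 5-FU, -0.14 in Combi, -0.22 in Combi versus 5-FU and 0.13 in SARB versus Combi, BAX to 0.18 and BNIP3 to -0.15 in SARB versus Combi, and BCL2 to -0.30 in TQ. On the first cartridge alone BAD in 5-FU was 0.089, BCL2 in TQ was -0.30, and 0 members were called lower in TQ. On that cartridge the log2 ratio of BAX to BCL2L1 minus control was -0.12 in TQ, 0.49 in 5-FU and 1.17 in SARB, and that of BAX to BCL2 was 0.095, 1.08 and 1.32. No ratio could be set for Combi there. Subtracting negatives, or using the authors' normalized values, gave BAX to BCL2 differences of -1.60 (TQ), -0.56 (5-FU), 0.63 (Combi) and -0.44 (SARB), and each raised members called higher in SARB to 2. The authors' values also gave 2 members called lower in TQ and BAD in Combi at -0.00018. The floor of 20 turned BCL2 in Combi to -0.19, and fitting only the compared groups turned BCL2 in TQ to -0.0022. With the replicate block BCL2 in TQ was -0.024 and no call of a member changed. With no limit on the fold change, members called lower became 3 in TQ, 2 in Combi, 2 in SARB and 1 in SARB versus Combi, and those called higher 2 in SARB and 1 in SARB versus Combi. With 1 sample left out, members called lower were 1 to 2 in TQ (2 without control replicate 1, TQ replicate 2 or TQ replicate 3), 0 to 1 in 5-FU (1 without control replicate 1), 0 to 1 in SARB (1 without control replicate 1 or SARB replicate 2) and 0 to 1 in SARB versus Combi (1 without SARB replicate 2), and 1 to 2 were called higher in SARB (2 without SARB replicate 3). Left-out samples moved BCL2 in TQ to between -0.12 and 0.18, BNIP3 in TQ to between -0.013 and 0.19 and BAD in Combi to between -0.15 and 0.15. BAX in Combi versus 5-FU lost its call without 5-FU replicate 1 (0.56), Combi replicate 2 (0.58) or Combi replicate 3 (0.56). It also lost it with TMM (0.53), the size factors of DESeq2 (0.46), positive-probe scaling (1.39) and cartridge as a block (0.13). With a filter at a mean count of 20, BCL2A1 was not tested. Over the panel, calls with the cartridge block came to 13 higher and 26 lower for TQ, 39 lower for 5-FU, 61 higher for Combi, 56 lower for SARB, and 0 higher with 1 lower for SARB versus Combi. BCL2 and BCL2A1 are limited by counts near the negative probes.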
